A study of Mus musculus with 6 samples.

Results

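The genes described here encode 46 lysosomal proteins that enter the secretory pathway through the endoplasmic reticulum (ER), out of 21652 genes in the count table. They were chosen by symbol from a list of hydrolases, membrane proteins, sorting receptors and progranulin that holds no autophagy factor. Every one of the 46 symbols was found, and 43 had enough counts for a test. Ribosome profiling, which sequences the mRNA fragments that ribosomes shield from nuclease, was applied to MIN6, a line of mouse pancreatic beta-cell tumour cells that secretes insulin. Footprint numbers follow both the amount of an mRNA and its density of ribosomes, which are not separated here. One group, sgLTN1, carried a CRISPR guide against Ltn1, the E3 ligase Listerin of ribosome-associated quality control, and the other, sgNT, a guide taken here to be non-targeting, with 3 libraries each. The labels name no other treatment and leave unsaid whether the cells were a clone or a pool. Nor do they state that replicates were separate cultures, so each p-value reflects the spread between libraries, which may be technical.

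Lysosomal hydrolases are made on ER-bound ribosomes, folded and N-glycosylated in the ER, and tagged with mannose 6-phosphate in the Golgi, where receptors collect them for the lysosome. The membrane proteins of the organelle reach it mainly through sorting signals in their cytosolic tails. In beta cells lysosomes also take up and degrade aged insulin granules. Many of these genes are activated together by the transcription factors TFEB, TFE3 and MITF, which bind an element built around the letters CACGTG.

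Promoter windows from RefSeq (GRCm38.p6), each with 250 bases before and 50 after a gene start, were found for 39 of the 46 genes. Ctsb, Ctsh, Asah1, Galns, Npc1, Sort1 and M6pr had no entry. The letters TCACGTG, searched on both strands, stood in the windows of 11 of the 39 genes (28.2%), against 3.77% of all 32851 windows and 7.07% of the 9839 tested genes with a window. The shorter core CACGTG, which every TCACGTG contains, stood in 13 of the 39 (33.3%). That compares with 7.15% of all windows and 11.8% of the 9839 tested genes with a window. In 9 of the 11 genes a copy began within 100 bases upstream of the start, and Gaa and Gla held theirs farther out. Such a match is a description of the letters and not of a bound site. Stretches of 80 bases upstream of the start are shown for 6 of these genes, chosen to cover a sorting receptor, hydrolases and membrane proteins, and for Gpnmb, whose footprints changed and whose window held no copy. They read 5′ to 3′ on the strand of the gene, with TCACGTG or its reverse complement CACGTGA in capitals, and palindromic copies show the longer run of both.
Igf2r, chr17:12769707-12769786, minus strand: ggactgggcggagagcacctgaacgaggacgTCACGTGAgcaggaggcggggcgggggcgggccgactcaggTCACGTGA
Naglu, chr11:101070004-101070083, plus strand: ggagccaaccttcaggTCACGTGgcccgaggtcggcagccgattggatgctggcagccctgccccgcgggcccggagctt
Lamp1, chr8:13159081-13159160, plus strand: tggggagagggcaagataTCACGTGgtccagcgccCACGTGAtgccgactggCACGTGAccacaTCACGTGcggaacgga
Mcoln1, chr8:3500429-3500508, plus strand: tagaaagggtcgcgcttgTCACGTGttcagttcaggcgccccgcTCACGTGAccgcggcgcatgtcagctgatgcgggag
Ctsd, chr7:142387878-142387957, minus strand: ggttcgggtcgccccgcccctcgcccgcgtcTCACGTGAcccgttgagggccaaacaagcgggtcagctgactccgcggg
Gla, chrX:134601166-134601245, minus strand: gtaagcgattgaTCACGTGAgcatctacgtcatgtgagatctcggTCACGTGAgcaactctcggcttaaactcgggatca
Gpnmb, chr6:49036438-49036517, plus strand: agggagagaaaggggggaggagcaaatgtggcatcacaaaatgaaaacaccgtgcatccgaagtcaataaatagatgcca
Lamp1 carried 4 copies in its 80 bases, and Igf2r, Mcoln1 and Gla carried repeated copies.

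The libraries held 4993245 to 11198735 gene counts in sgLTN1 and 4373467 to 7802364 in sgNT. Footprints on Ltn1 averaged 67.2 ± 3.67 CPM in sgLTN1 and 143 ± 1.84 CPM in sgNT (CPM, counts per 1000000 after library scaling, mean ± SD, n = 3 each), so the target stood at 0.470 of the control level. The beta-cell markers summed to between 132437 and 153056 CPM in sgLTN1 libraries and between 129622 and 142089 CPM in sgNT libraries. Of the 12 markers, Slc2a2 and Ucn3 were near 0, with 22 and 3 counts over the sgLTN1 libraries and 13 and 9 over the sgNT libraries. Fold changes over all genes moved with abundance. The chi-square over its degrees of freedom was lower between sgLTN1 library 3 and sgNT library 1 (2.72) than between sgLTN1 library 3 and the other sgLTN1 libraries (6.49 and 4.85). It was taken on counts not brought to equal depth and rises with depth, and sgLTN1 libraries 1 and 2 were the deepest. Summed markers of acinar and duct cells (9.04 to 13.2 CPM in sgLTN1, 8.41 to 11.0 CPM in sgNT) and of fibroblasts and endothelium (13.5 to 18.3 CPM in sgLTN1, 16.1 to 18.1 CPM in sgNT) were low in both groups.

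Setting sgLTN1 against sgNT compares footprint numbers between the groups of libraries, here on the lysosomal genes. Of the 43 tested genes 1 changed, where 0.180% of all 12782 tested genes did: footprints on Gpnmb fell to 0.494 of the sgNT level. Of the other 42, none passed the threshold, an adjusted p of 0.05 over all tested genes in edgeR's quasi-likelihood test. Their differences were small and lay almost all on one side, since 41 had a log2 fold change of sgLTN1 over sgNT above 0, between 0.06 and 0.27, against 47.3% of all tested genes, and Cd68 stood below 0. Over all tested genes, 0.0939% were called lower and 0.0861% were called higher, which is 12 and 11 genes. The split was 34 lower and 8 higher with total-count scaling, and 13 lower and 7 higher with the abundance trend removed. At an unadjusted p of 0.05, 23 of the 43 lysosomal genes were higher, against 8.00% of all tested genes, and 1, Gpnmb, was lower, against 7.56%. These shares are not matched for abundance, and most abundant genes lay above 0 (77.6% between 200 and 1000 CPM, 90.4% at or above 1000 CPM). Counts at an unadjusted p, here and below, are not given with the trend of fold change with abundance removed. On the log2 scale the 43 genes had a median fold change of 0.15, and all tested genes one of -0.02. The authors' deposited table, made with DESeq2, called 3 of the 40 lysosomal genes that have an adjusted p there, all higher, against 6.79% of its genes called higher and 1.63% called lower. The 3 genes were Naglu, Galns and Igf2r, and limma-voom called none of the 43 higher.

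**Figure D1:**
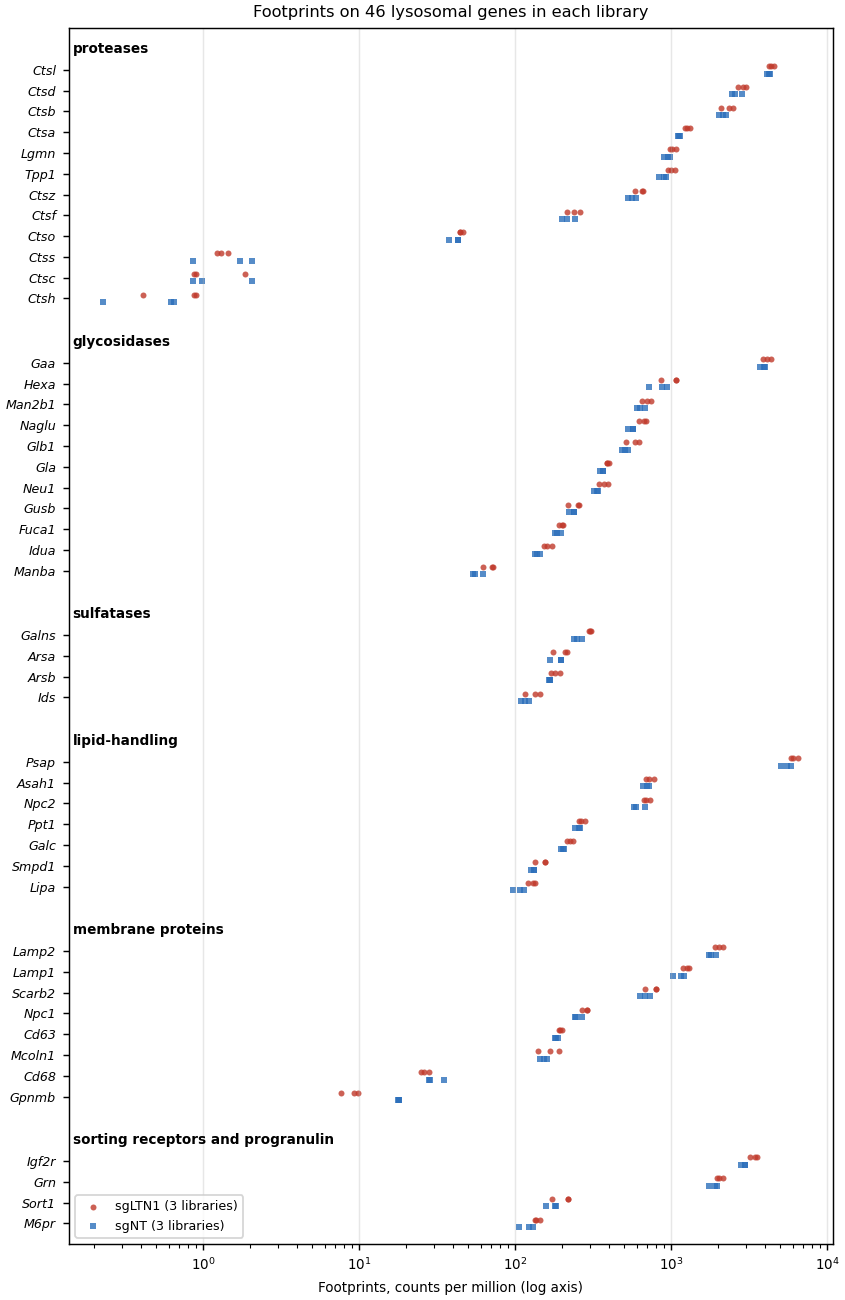
Footprints on each of the 46 lysosomal genes, in CPM on a log axis, with 1 point per library (red circles, 3 sgLTN1 libraries, blue squares, 3 sgNT libraries) and genes grouped by role and ordered by mean level. The groups lie close together for nearly all genes, Gpnmb stands apart with 7.67 to 9.77 CPM in sgLTN1 and 17.7 to 17.9 CPM in sgNT, and Ctss, Ctsc and Ctsh lie near 1 CPM.

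The level of the other genes is set against this change in the order of their roles. CPM is not divided by gene length, so levels are compared between libraries and not between genes. Over the 43 genes the coefficient of variation among the 3 libraries of a group had a median of 5.78% in sgLTN1 (range 1.03% to 15.4%) and 5.43% in sgNT (range 0.400% to 13.7%).

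Gpnmb (ENSMUSG00000029816.11) encodes a transmembrane glycoprotein of melanosomes and lysosomes that is known as a target of MITF and TFE3. It read 7.67, 9.77 and 9.25 CPM in libraries 1 to 3 of sgLTN1, against 17.9, 17.9 and 17.7 CPM in libraries 1 to 3 of sgNT. All 3 sgLTN1 libraries lay below all 3 sgNT libraries, and the control libraries were close to one another. The log2 fold change was -1.02 (SE 0.13, adjusted p = 0.0119), and it was -0.99 (SE 0.13, adjusted p = 0.0195) after the trend of fold change with abundance was removed. The counts behind it were modest, 85, 90 and 45 in sgLTN1 and 78, 145 and 82 in sgNT. In fits of 5 libraries the direction held, and the call ended without sgLTN1 library 1 (adjusted p = 0.0886), sgLTN1 library 2 (0.0598), sgNT library 1 (0.0572) or sgNT library 2 (0.0583). For Gpnmb the authors' deposited table lists -0.99 (SE 0.22), an unadjusted p of 4.68e-06 and no adjusted p. In bulk libraries a change in the number of cells that make an mRNA and a change per cell cannot be told apart.

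Cd68, a heavily glycosylated protein related to the LAMP family and best known from macrophages, was the other gene below 0. It read 26.1, 28.2 and 24.9 CPM in sgLTN1 and 34.8, 28.5 and 27.8 CPM in sgNT, with a log2 fold change of -0.19 (SE 0.11, adjusted p = 0.435). Its groups overlapped, and sgNT library 1 was the highest. Since Gpnmb and Cd68 are also macrophage genes, the 13 macrophage markers are given beside them. None was at 0 in all libraries, 11 had too few counts for a test, and the list summed to 33.9 to 39.9 CPM in sgLTN1 and 34.1 to 54.1 CPM in sgNT. The defining markers Adgre1, Csf1r, Cd14 and Ptprc had 2, 18, 7 and 14 counts over the sgLTN1 libraries and 3, 7, 6 and 6 over the sgNT libraries. Most of the sum came from C1qa, a complement subunit, with 22.5 ± 2.23 CPM in sgLTN1 and 27.2 ± 2.31 CPM in sgNT and no overlap, and from Fcer1g, an Fc receptor subunit, with 7.93 ± 2.10 CPM in sgLTN1 and 15.6 ± 9.11 CPM in sgNT. Neither passed (adjusted p = 0.245 and 0.336). The partner subunits of C1qa, C1qb and C1qc, were too low for a test. They had 37 and 5 counts over the sgLTN1 libraries and 13 and 1 over the sgNT libraries. The part of macrophages in the result for Gpnmb was not tested.

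The remaining 6 membrane proteins had log2 fold changes from 0.08 to 0.17, and none passed. With the abundance trend removed 5 of all 8 membrane proteins lay above 0, and their median was 0.01, against 0.14 before. Lamp1 and Lamp2, the abundant glycoproteins that line the inner face of the lysosomal membrane, were alike. Lamp1 (ENSMUSG00000031447.8) read 1254, 1305 and 1195 CPM in sgLTN1 and 1214, 1161 and 1020.2 CPM in sgNT (0.15, SE 0.07, adjusted p = 0.346). Lamp2 (ENSMUSG00000016534.16) read 2016, 2157 and 1907 CPM in sgLTN1 and 1941, 1803 and 1747 CPM in sgNT (0.15, SE 0.06, adjusted p = 0.294). In each gene sgLTN1 library 3, the lowest of its group, lay below sgNT library 1. Npc1, the membrane protein that exports cholesterol from the lysosome, read 288, 289 and 268 CPM in sgLTN1 and 268, 242 and 244 CPM in sgNT, and the groups met at 268 CPM (0.17, SE 0.07, adjusted p = 0.252). The other members of this class were Scarb2, the receptor that carries glucocerebrosidase to the lysosome, the tetraspanin Cd63, and Mcoln1, a lysosomal cation channel. Of these 3, Cd63 had groups that did not overlap, with 191 to 201 CPM in sgLTN1 and 179 to 189 CPM in sgNT.

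Among the 12 proteases, 9 were tested, all 9 lay above 0 and none passed, with a median of 0.13. With the trend of fold change with abundance removed, 5 of the 9 lay above 0 and the median was 0.04. At an unadjusted p under 0.05, 3 of them were higher, against 8.00% of all tested genes. Ctsa (ENSMUSG00000017760.17) encodes protective protein, a carboxypeptidase that also stabilises beta-galactosidase and neuraminidase. It read 1261, 1316 and 1220.2 CPM in sgLTN1, against 1119, 1142 and 1099.8 CPM in sgNT, with no overlap (0.18, SE 0.05, adjusted p = 0.168). Tpp1 (ENSMUSG00000030894.6), a tripeptidyl peptidase, also did not overlap, at 999, 1054 and 954 CPM in sgLTN1 and 929, 901 and 832 CPM in sgNT (0.18, SE 0.06, adjusted p = 0.21). Ctso was the only other protease whose groups were apart.

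Ctsd (ENSMUSG00000007891.17), the aspartic protease cathepsin D, read 2902, 3016 and 2691 CPM in sgLTN1 and 2827, 2577 and 2464 CPM in sgNT (0.13, SE 0.07, adjusted p = 0.373). Ctsl (ENSMUSG00000021477.10), the cysteine protease cathepsin L, read 4369, 4548 and 4232.5 CPM in sgLTN1 and 4282, 4143 and 4231 CPM in sgNT (0.06, SE 0.05, adjusted p = 0.658). Both overlapped between groups, and Ctsl had the smallest fold change of the 41 genes above 0. Ctsb, Ctsf, Ctso and Ctsz, further cathepsins, and Lgmn, the asparagine-specific protease legumain, lay between 0.10 and 0.17. Ctss, Ctsc and Ctsh, cathepsins prominent in immune cells, drew few footprints. Ctss had 16, 12 and 6 counts in sgLTN1 and 9, 14 and 4 in sgNT. Ctsc had 10, 8 and 9 counts in sgLTN1 and 9, 8 and 4 in sgNT. Ctsh had 10, 8 and 2 counts in sgLTN1 and 1, 5 and 3 in sgNT. No fold change is given for these 3, whose differences could not be detected at such counts.

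All 11 glycosidases, which trim sugars from glycoproteins, glycolipids and glycosaminoglycans, lay above 0 with a median of 0.15, and none passed. With that trend removed 9 lay above 0, and the median was 0.06. The unadjusted p was under 0.05 for 7 of them, all higher, against 8.00% of all tested genes. Naglu (ENSMUSG00000001751.10), an enzyme of heparan sulfate breakdown, read 666, 694 and 626 CPM in sgLTN1, against 569, 573 and 527 CPM in sgNT. The groups did not overlap, and the log2 fold change was 0.25 (SE 0.06, adjusted p = 0.124). In the authors' deposited table Naglu rose by 0.27 (SE 0.08, adjusted p = 0.0191). Idua (ENSMUSG00000033540.19), which removes iduronic acid from the same polymer and from dermatan sulfate, read 159.8, 172 and 154 CPM in sgLTN1 and 143, 138 and 134 CPM in sgNT (0.23, SE 0.07, adjusted p = 0.162). Its groups too were apart.

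Hexa (ENSMUSG00000025232.9), the alpha subunit of the hexosaminidase that degrades GM2 ganglioside, varied more between libraries. It read 1081, 1073 and 859 CPM in sgLTN1 and 945, 875 and 719 CPM in sgNT, and sgLTN1 library 3 lay below both sgNT library 1 and sgNT library 2 (0.25, SE 0.11, adjusted p = 0.302). Gaa (ENSMUSG00000025579.15), the acid alpha-glucosidase of glycogen, overlapped through sgLTN1 library 3, with 4097, 4337 and 3854 CPM in sgLTN1 and 3961, 3978 and 3692 CPM in sgNT (0.08, SE 0.06, adjusted p = 0.568). The other 7, Gla, Glb1, Gusb, Man2b1, Manba, Neu1 and Fuca1, ranged from 0.06 for Gusb to 0.26 for Manba, a beta-mannosidase. Manba had 62.1 to 72.3 CPM in sgLTN1 and 53.9 to 62.0 CPM in sgNT.

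The 4 sulfatases, which remove sulfate from glycosaminoglycans and sulfolipids, lay above 0 with a median of 0.16 (4 above 0 and 0.11 with the trend removed), and none passed. Of them, 2 were higher at an unadjusted p under 0.05, against 8.00% of all tested genes. Galns (ENSMUSG00000015027.12), the sulfatase of keratan and chondroitin sulfate, was nearly constant within sgLTN1. It read 305, 299 and 303 CPM in sgLTN1, against 239, 269 and 250.2 CPM in sgNT, with no overlap (0.25, SE 0.06, adjusted p = 0.124). In the authors' deposited table it rose by 0.27 (SE 0.08, adjusted p = 0.0223). Ids, which acts on dermatan and heparan sulfate, read 135, 145 and 116 CPM in sgLTN1 and 108, 122 and 116 CPM in sgNT (0.19, SE 0.09, adjusted p = 0.318). Arsa, which acts on sulfatide, read 209, 214 and 176 CPM in sgLTN1 and 198, 198 and 168 CPM in sgNT (0.09, SE 0.09, adjusted p = 0.7). The groups of Ids and Arsa overlapped through sgLTN1 library 3.

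All 7 genes of lipid handling lay above 0 with a median of 0.17 (5 above 0 and 0.06 with the trend removed), and none passed. Of them, 5 were higher at an unadjusted p under 0.05, against 8.00% of all tested genes. Lipa (ENSMUSG00000024781.17), the acid lipase that splits cholesteryl esters and triglycerides, had the highest log2 fold change of the 43 genes, 0.27 (SE 0.08, adjusted p = 0.158). It read 130.4, 135 and 120.0 CPM in sgLTN1, against 114, 108 and 96.9 CPM in sgNT, and the groups did not overlap. Psap (ENSMUSG00000004207.16), the precursor of the saposins that present sphingolipids to their hydrolases, drew the most footprints of the 46 genes. It read 6076, 6511 and 5883 CPM in sgLTN1 and 5831, 5526 and 5080.2 CPM in sgNT, again without overlap (0.17, SE 0.06, adjusted p = 0.234). Asah1, acid ceramidase, read 724, 781 and 688 CPM in sgLTN1 and 725, 656 and 699 CPM in sgNT, which overlapped (0.08, SE 0.07, adjusted p = 0.622). Ppt1, a thioesterase, Smpd1, acid sphingomyelinase, Galc, a galactosylceramidase, and Npc2, the soluble partner of Npc1, lay between 0.08 and 0.18.

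The 3 sorting receptors and progranulin lay above 0 with a median of 0.22 (3 of the 4 above 0 and 0.11 with the trend removed), and none passed. Of the 4, 3 were higher at an unadjusted p under 0.05, against 8.00% of all tested genes. Igf2r (ENSMUSG00000023830.15) encodes the cation-independent mannose 6-phosphate receptor, which also clears the growth factor IGF2. It read 3461, 3577 and 3194 CPM in sgLTN1, against 2995, 2954 and 2784 CPM in sgNT, without overlap (0.23, SE 0.06, adjusted p = 0.126). In the authors' deposited table it rose by 0.25 (SE 0.08, adjusted p = 0.0252). M6pr, the cation-dependent receptor, read 135, 144 and 137 CPM in sgLTN1 and 129.5, 122 and 106 CPM in sgNT, also without overlap (0.22, SE 0.08, adjusted p = 0.226). Grn, progranulin, read 2036, 2162 and 1969.7 CPM in sgLTN1 and 1971, 1918 and 1761 CPM in sgNT, and the groups touched at sgLTN1 library 3 (0.13, SE 0.06, adjusted p = 0.345). Sort1, sortilin, which carries progranulin to the lysosome, had 172 to 218 CPM in sgLTN1 and 158 to 182 CPM in sgNT.

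**Figure D2:**
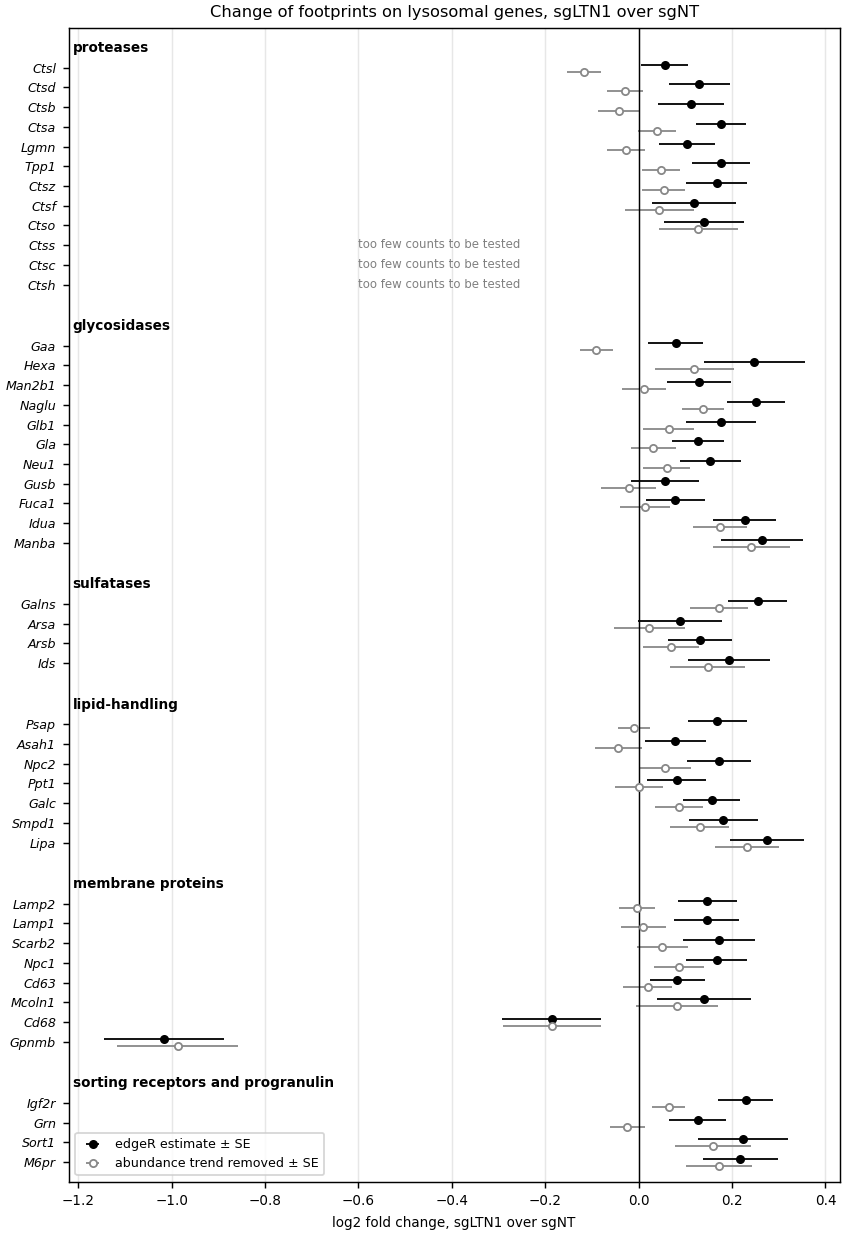
Log2 fold change of sgLTN1 over sgNT for each tested lysosomal gene, grouped by role, with standard errors, as estimated by edgeR (filled points) and after the trend of fold change with abundance was removed (open points). Filled points lie between 0.06 and 0.27 for 41 genes, Cd68 is at -0.19 and Gpnmb at -1.02, while open points lie above 0 for 31 of the 43.

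The groups did not overlap for 17 genes that were higher in sgLTN1, against 10.1% of all tested genes, and for 1 that was lower, Gpnmb, against 10.1%. For 25 genes they overlapped. The libraries kept a similar order from gene to gene. Measured from each gene's mean over the 6 libraries, the median log2 level of the 43 genes was 0.08, 0.16 and -0.01 for the sgLTN1 libraries in order of number, and 0.00, -0.06 and -0.14 for the sgNT libraries. The highest value was in sgLTN1 library 2 for 38 of the 43 genes, and the lowest in sgNT library 3 for 32. In this median sgLTN1 library 3 lay beside sgNT library 1. Without sgLTN1 library 3 the median log2 fold change was 0.19, and 4 genes were called, where 1.42% of all tested genes were called higher and 1.06% lower. Those were Gpnmb (-1.04), Naglu (0.29, adjusted p = 0.0389), Igf2r (0.28, adjusted p = 0.0364) and Sort1 (0.33, adjusted p = 0.0453), the last of which was singled out after its values were seen. Because sgLTN1 library 3 had the lowest median of its group, a larger fold change without it follows from its position. No lysosomal gene was called higher when any other single library was left out, and the medians then ran from 0.125 to 0.195. The 46 genes together took 4.16%, 4.20% and 3.85% of the counts of the sgLTN1 libraries, against 3.97%, 3.96% and 3.74% of those of the sgNT libraries, and these shares overlapped.

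**Figure D3:**
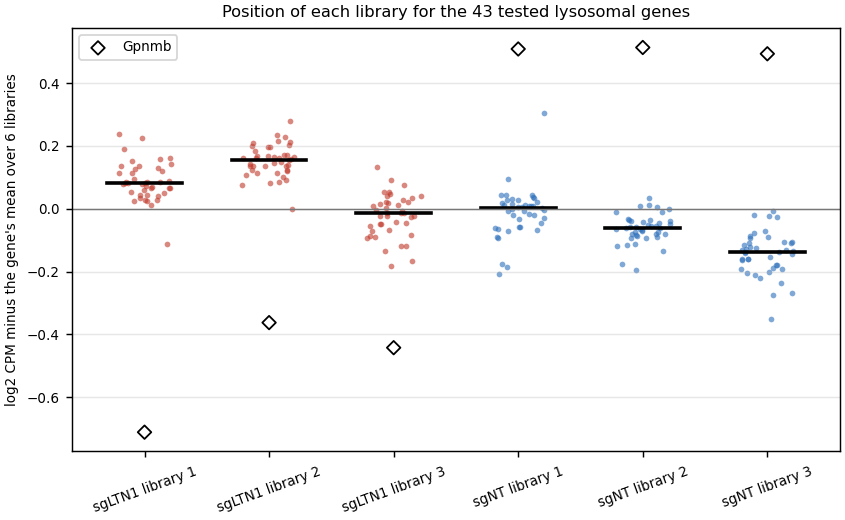
Each tested lysosomal gene's log2 CPM minus its mean over the 6 libraries, by library, with sgLTN1 libraries in red, sgNT libraries in blue, black bars at the median of the 43 genes and open diamonds for Gpnmb. The medians run from 0.16 in sgLTN1 library 2 to -0.14 in sgNT library 3, and those of sgLTN1 library 3 (-0.01) and sgNT library 1 (0.00) are close, while Gpnmb lies below 0 in the sgLTN1 libraries and above 0 in the sgNT libraries.

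Most of these genes drew many footprints, and fold changes over the whole table also moved with level, so the genes were set beside others of their own abundance. Among genes at or above 1000 CPM, the 10 lysosomal genes had a median of 0.14 with 10 above 0, and all 104 genes had a median of 0.15 with 90.4% above 0. Between 200 and 1000 CPM the 18 lysosomal genes had a median of 0.16 with 18 above 0, and all 557 genes a median of 0.12 with 77.6% above 0. Between 50 and 200 CPM the 12 lysosomal genes, among them Idua, Lipa, Ids, Smpd1, Manba and M6pr, had a median of 0.19 with 12 above 0, where all 1920 genes had a median of 0.03 with 57.2% above 0. The 3 tested genes under 50 CPM were Gpnmb, Cd68 and Ctso.

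With the abundance trend removed, 31 of the 43 lysosomal genes stayed above 0, against 49.4% of all tested genes, and their median was 0.05, against -0.00 for all. The 10 genes at or above 1000 CPM then had a median of -0.02 with 3 above 0, Ctsl standing at -0.12 and Gaa at -0.09. All 104 genes of that class had a median of -0.02 with 42.3% above 0. The 18 genes between 200 and 1000 CPM had a median of 0.05 with 15 above 0, against 0.03 and 57.8% for all genes of the class. The 12 genes between 50 and 200 CPM had a median of 0.14, and all 12 remained above 0. Manba stood at 0.24, Lipa at 0.23 and Idua at 0.17, while Fuca1 (0.01, SE 0.05), Cd63 (0.02, SE 0.05) and Arsa (0.02, SE 0.08) were within their SE of 0. All genes of that class had a median of -0.0007 with 49.8% above 0. Under this setting Gpnmb was called and no other lysosomal gene was, where 0.156% of all genes were called. Scaling by total counts, which leaves 39 of the 43 above 0, gave a median of 0.07, against -0.09 for all tested genes.

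**Figure D4:**
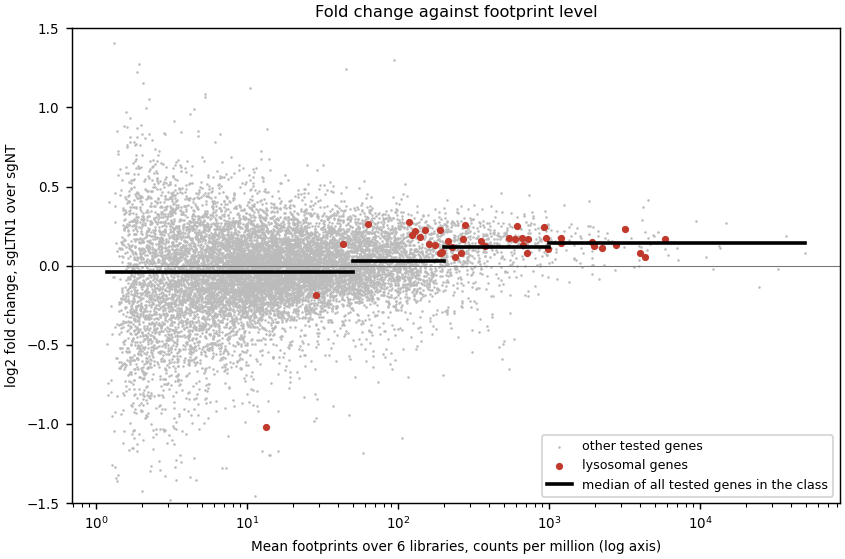
Log2 fold change of sgLTN1 over sgNT (y axis, limited to 1.5 on either side of 0, which leaves out 15 genes) against mean footprints over the 6 libraries in CPM (log x axis), for lysosomal genes in red and other tested genes in grey, with black lines at the median of all tested genes in 4 classes of level. The lines climb from -0.04 under 50 CPM to 0.15 at and above 1000 CPM, and the lysosomal genes lie above the line between 50 and 200 CPM and around it at and above 1000 CPM.

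The genes with TCACGTG in the promoter windows shown above had a similar median to those without. The 11 had log2 fold changes from 0.08 to 0.25 with a median of 0.14, and all lay above 0. The 26 tested genes with a window but no copy had a median of 0.15, and 24 lay above 0.

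Other genes of the pathway were read from lists of genes outside the 46, beside the 47.3% of all tested genes that lay above 0, or 49.4% with the abundance trend removed. At an unadjusted p of 0.05 in edgeR's test, 8.00% of all tested genes were higher and 7.56% were lower. All 8 genes that tag or ferry hydrolases with mannose 6-phosphate, or that are named as sulfatase-modifying factors, lay above 0. Their median was 0.22 (8 above 0 and 0.22 with the trend removed), and none passed, with 3 at an unadjusted p under 0.05. Gnptab and Gnptg encode subunits of the tagging enzyme, and Gnptg read 635 ± 27.9 CPM in sgLTN1 and 555 ± 37.8 CPM in sgNT (0.19, SE 0.07, adjusted p = 0.197). Gga2, an adaptor for the receptors at the Golgi, read 118 ± 2.26 CPM in sgLTN1 and 99.3 ± 2.89 CPM in sgNT (0.24, SE 0.06, adjusted p = 0.131).

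Of 30 further tested hydrolases and cofactors 28 lay above 0, with a median of 0.15 (26 above 0 and 0.08 with the trend removed), and none passed, with 9 at an unadjusted p under 0.05. Dpp7, a dipeptidyl peptidase, is one of them, with 376 ± 4.91 CPM in sgLTN1 and 315 ± 10.9 CPM in sgNT (0.25, SE 0.06, adjusted p = 0.102). Of 32 further tested membrane proteins 26 lay above 0, with a median of 0.15 (25 above 0 and 0.11 with the trend removed), and none passed, with 10 above 0 and 1 below at an unadjusted p under 0.05. The cation channel gene Tpcn1 (0.30, SE 0.08, adjusted p = 0.136) and the transporter-like gene Mfsd8 (0.35, SE 0.10, adjusted p = 0.147) had the smallest p.

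The genes that regulate the organelle from the cytosol did not lie to one side. Of 14 tested MiT factors and nutrient-sensing genes 6 lay above 0, with a median of -0.02 (7 above 0 and 0.01 with the trend removed), and none passed, with 0 above and 2 below at an unadjusted p under 0.05. Tfeb read 3.14 ± 0.664 CPM in sgLTN1 and 2.87 ± 1.56 CPM in sgNT, and Tfe3 read 19.3 ± 0.821 CPM in sgLTN1 and 20.1 ± 0.392 CPM in sgNT. Mitf read 2.89, 3.37 and 2.88 CPM in sgLTN1 and 4.13, 3.83 and 3.45 CPM in sgNT, and it did not pass (-0.31, SE 0.22, adjusted p = 0.558). The groups were apart but on few counts, 32, 31 and 14 in sgLTN1 and 18, 31 and 16 in sgNT. Mitf is a known activator of Gpnmb, and its part in the result for Gpnmb was not tested. The 2 smallest p in this list were those of the Rag GTPase gene Rraga, with 85.9 ± 0.933 CPM in sgLTN1 and 103 ± 4.66 CPM in sgNT (-0.26, SE 0.07, adjusted p = 0.131), and the Ragulator gene Lamtor4 (-0.32, SE 0.12, adjusted p = 0.24).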

How the data were processed

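The authors deposited whole-number read counts per gene for 6 libraries. The submitters' processing notes name build GRCm39, the aligners STAR 2.7.11a and Bowtie2 2.5.4, and featureCounts 2.12.3, SAMtools 1.9, UMI-tools 1.1.2 and fastp 0.23.4. Settings, strand handling and annotation were not stated, and reads shared by overlapping genes or close paralogs may be misassigned. A second deposited table holds, per the file headers, DESeq2 (1.38.3 in the notes) results: p-values, log2 fold changes with standard errors, a score (the Wald statistic), and a signal level (the mean normalized count). Its direction was checked against the counts (r = 0.996 over 12782 genes).

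The deposited counts went into edgeR 4.0.16 (R 4.3.3): filterByExpr defaults, TMM scaling (factors 0.954 to 1.04), the quasi-likelihood test of sgLTN1 against sgNT with group as the only term, and Benjamini-Hochberg adjustment over 12782 tested genes (threshold 0.05). Standard errors come from the test statistic. The abundance trend was removed by loess offsets (span 0.3). Alternatives used limma 3.58.1 and DESeq2 1.42.0, other scaling, no filter, a replicate block, and 1 library left out. The test was first tested on simulated data.

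The 46 genes and all lists were chosen with earlier results of these data known. Genes with full values are those past the threshold and, per role, the 2 with the most CPM and the 2 with the smallest p. Cd68 was singled out after its values were seen. Since no coding lengths were used here, levels are not compared per length. Library pairs differed by more than sampling noise (lowest chi-square per degree of freedom 2.40). One gene of a pathway list is counted but not reported by name here.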

Additional observations from a re-analysis of the deposited data

How the results depend on the processing

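Over all genes, 23 were called with the settings of the report, 42 with total-count scaling, 222 without the filter on low counts, 227 by DESeq2, 40 by limma-voom and 609 with a replicate block, and leaving out 1 library gave 4 to 333. Of the lysosomal genes, 1 was called with the settings of the report, 3 (all higher) by DESeq2, which gives Gpnmb no adjusted p, and 10 (9 higher, 1 lower) with the replicate block, and leaving out 1 library gave 0 to 4. The labels do not state that same-numbered libraries were paired. Their deviations correlated at -0.0527, 0.084 and 0.0999, and sgLTN1 libraries 2 and 3, but not 1, correlated best with their own number in sgNT. Such values from 3 libraries per group cannot decide whether the libraries were paired. Gpnmb was called with DESeq2 size factors, total counts, limma-voom, the abundance trend removed, no filter, the replicate block and the most abundant genes left out, and its log2 fold change ranged from -1.09 to -0.90 (adjusted p 0.000305 to 0.0886). The median of the 43 genes moved to 0.073 with total counts and 0.048 without the abundance trend, and otherwise stayed between 0.13 and 0.20. The median of all tested genes also moved with total counts, from -0.016 to -0.092. With total counts 39 of the 43 lay above 0, and Ctsl turned to -0.020. Removal of the abundance trend turned 10 genes, Ctsl to -0.12, Ctsd to -0.029, Ctsb to -0.043, Lgmn to -0.027, Gaa to -0.091, Gusb to -0.021, Psap to -0.010, Asah1 to -0.043, Lamp2 to -0.0037 and Grn to -0.024. The cause was not tested. Depth limits Ctss, Ctsc and Ctsh.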
